A study of Mus musculus with 10 samples.

Results

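The genes described here are 31 transcripts that mark microglia or encode complement proteins, out of 43629 genes counted in the mouse hippocampus. They were chosen by symbol from 5 roles: 11 genes of resting microglia, 7 genes of myeloid cells in general, 5 complement components, 6 lysosomal or activated-state genes and 2 genes of MHC class II. All 31 were found in the count table, and none of them lies in the segment of chromosome 16 that differs in copy number between the groups.

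The whole hippocampus was sequenced from 5 wild-type (WT) and 5 Dp1Tyb mice, 1 library per mouse, named WT1 to WT5 and Dp1Tyb1 to Dp1Tyb5. Dp1Tyb mice, a model of Down syndrome labelled Dp(16Lipi-Zbtb21)1TybEmcf, carry 3 copies of the genes from Lipi to Zbtb21, while WT mice carry the normal pair. The labels give the strain of both groups as C57BL/6J.129P2 and the age as 18 weeks. The methods of the study describe them as male littermates and give an age slightly above that of the labels. Libraries held 18227684 to 43692270 counts, of which the 31 genes took 0.0878% to 0.107%.

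Microglia are the resident macrophages of the brain. They are maintained through the receptor Csf1r, survey the tissue with purinergic and chemokine receptors, and are the main source of C1q there. Complement is a protein cascade in which C1q starts the classical pathway, C4 and then C3 are cleaved and deposited on the target, and receptors on myeloid cells bind the tagged surface. In the brain the cascade is best known for tagging synapses and debris for uptake by microglia, and C3 and C4 are also made by reactive astrocytes.

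Levels are given as CPM, counts scaled to a common library size with TMM factors, and differences as log2 fold changes of Dp1Tyb against WT with their standard error (SE), from edgeR's quasi-likelihood test over all genes. An adjusted p under 0.05 was called significant. Over all tested genes, 191 of 17237 (1.11%) were called. Of the 31 genes, 30 had enough counts to be tested, and 0 were called by edgeR. At an unadjusted p under 0.05 there were 6 of 30 (20%), against 14.4% of all tested genes. The 2 that were higher in Dp1Tyb were C3 and C4b, and the 4 that were lower were Tmem119, Fcrls, Selplg and C1qc, where 7.97% and 6.4% of all tested genes were higher and lower by that measure. DESeq2, run on the same counts, called 2 of 29 (C3 and C4b), against 3.2% of all genes it tested, and limma-voom called 0. The groups overlapped in all 30. Genes without overlap were also few over all tested genes, at 3.68%. The estimates were positive for 12 genes and negative for 18, with a median of −0.06 against −0.0041 for all tested genes. In a bulk tissue, a difference in the number of microglia and one in RNA per microglial cell cannot be told apart in such values.

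**Figure D1:**
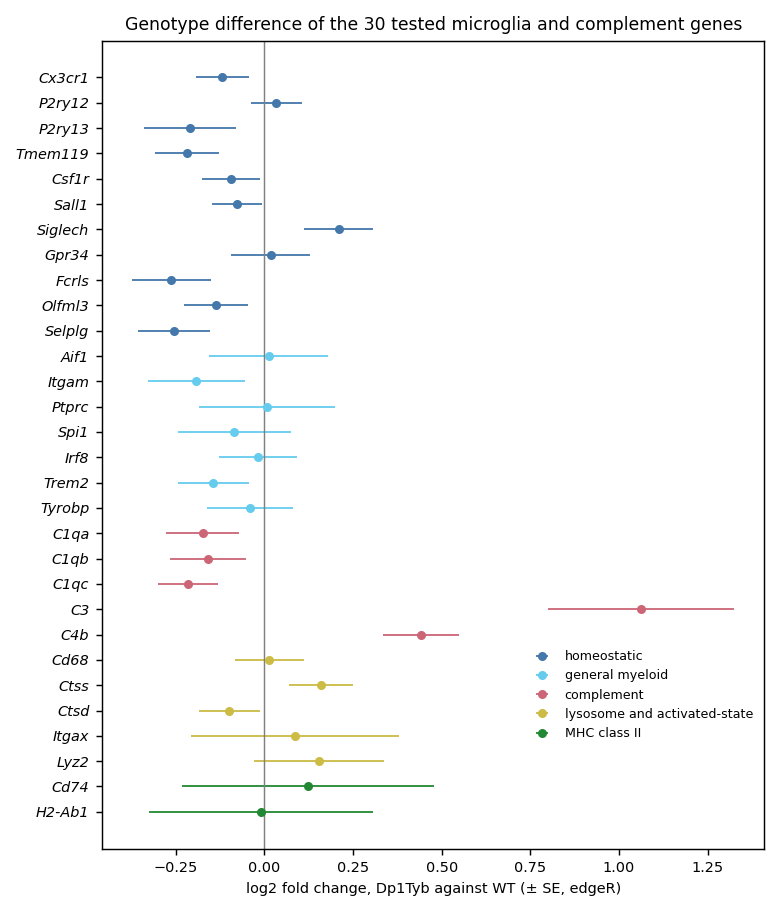
Log2 fold change (Dp1Tyb against WT, edgeR) of the 30 tested genes on the horizontal axis, with bars of ± 1 SE, coloured by role. C3 (1.06) and C4b (0.44) stand to the right of the other genes, whose estimates lie between −0.26 and 0.21.

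Every marker of resting microglia was detected in every library. Compared per length of transcript (RPKM over the summed exons of each gene), the most abundant of the 31 was Ctsd, the lysosomal protease cathepsin D, at 161 ± 18.0 (SD over the 10 mice), but cathepsin D is made by most cells. Ctss, the protease cathepsin S of microglia, followed at 37.1 ± 4.74. C1qa and C1qb came next, at 31.4 ± 4.60 and 31.05 ± 4.68, closer to each other than their spread. Csf1r reached 15.6 ± 1.55, P2ry12, an ADP receptor by which microglia sense injury, 11.5 ± 0.942, and C4b 11.1 ± 2.27. At the other end were C3 at 0.455 ± 0.242 and Itgax, the integrin CD11c of activated microglia and dendritic cells, at 0.0803 ± 0.0232. Of 8 markers of monocytes and neutrophils, 0 had enough counts to be tested, and their summed level was 0.513 to 1.99 CPM in WT and 0.52 to 1.10 CPM in Dp1Tyb.

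**Figure D2:**
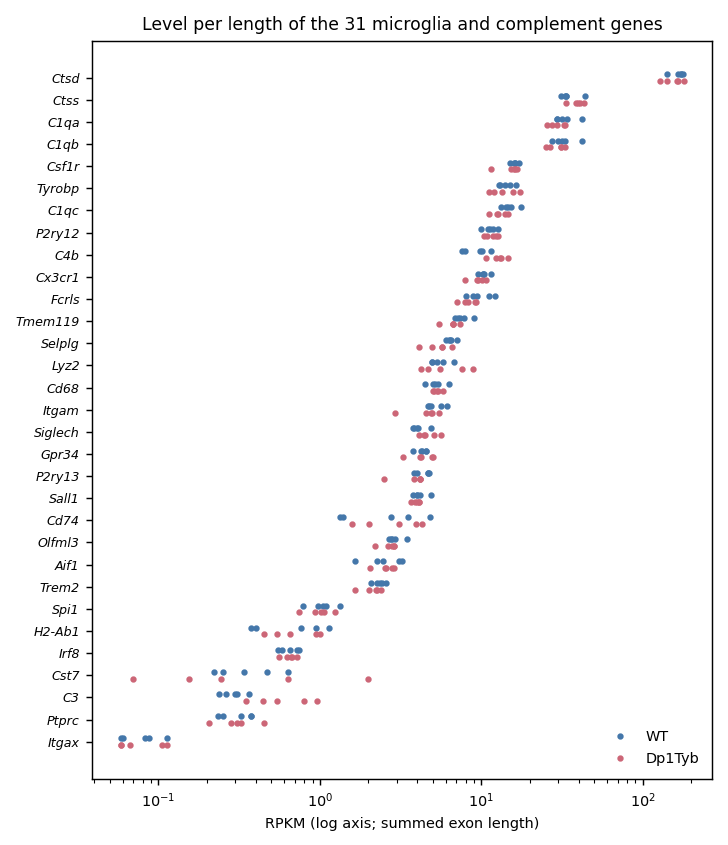
Level per length (RPKM over summed exons, log axis) of each of the 31 genes in each mouse, WT in blue and Dp1Tyb in red, 1 point per library, ordered by the mean over the 10 mice. Ctsd is at the top, Itgax at the bottom, and C3 and Cst7 spread widest among the Dp1Tyb mice.

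Among the complement components, C3 and C4b had positive estimates and the 3 chains of C1q negative ones. C3, the central protein of the cascade (ENSMUSG00000024164, GRCm38 chr17:57203970-57228136, minus strand), stood at 1.59, 1.87, 1.36, 1.21 and 1.54 CPM in WT1 to WT5. In Dp1Tyb1 to Dp1Tyb5 it stood at 1.79, 2.27, 4.08, 4.94 and 2.78 CPM. Of the Dp1Tyb mice, 4 of 5 were above every WT mouse, and only Dp1Tyb1 lay within the WT range, just under WT2. Means were 1.51 ± 0.251 (SD) CPM in WT and 3.17 ± 1.31 CPM in Dp1Tyb, with a log2 fold change of 1.06 ± 0.26 (SE). The edgeR adjusted p was 0.0747, short of the threshold, at an unadjusted p of 0.00133. DESeq2 gave an adjusted p of 0.00522, the unfiltered edgeR fit 0.038 and the edgeR fit without Dp1Tyb1 0.0249, and the other 14 of 17 alternatives did not call it (highest adjusted p 0.182). These levels rest on 25 to 51 counts per WT library and 61 to 163 per Dp1Tyb library.

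C4b, the mouse C4 of the classical pathway (ENSMUSG00000073418, GRCm38 chr17:34728380-34743882, minus strand), was measured far more deeply. WT1 to WT5 had 65.0, 56.1, 44.9, 43.2 and 57.6 CPM. Dp1Tyb1 to Dp1Tyb5 had 75.2, 70.1, 74.0, 61.0 and 82.8 CPM. Again 4 of 5 Dp1Tyb mice were above all WT mice, and the overlap came from WT1 and Dp1Tyb4. Means were 53.4 ± 9.13 and 72.6 ± 7.95 CPM (SD), and the log2 fold change was 0.44 ± 0.11 (SE) with an edgeR adjusted p of 0.0708. The call turned with the method: DESeq2 gave 0.00381, edgeR without a filter 0.0284, and edgeR without WT1 0.0327. Its adjusted p ranged from 0.00381 to 0.156 over 17 alternatives, of which 4 called it, the other one being a fit with the replicate number as a block.

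C4b has a close copy, C4a, and 23.5% of the 75-base windows of C4b also occur in C4a, so reads that could come from either were lost when multiply aligned reads were discarded, and the C4b values are uncertain to that extent. C4a stood at 3.98, 3.54, 2.60, 3.12 and 3.40 CPM in WT and at 3.21, 2.06, 2.68, 3.39 and 3.10 CPM in Dp1Tyb. The log2 fold change of C4a was −0.21 (edgeR adjusted p = 0.557), opposite in sign to that of C4b. The ratio of C4b to C4a counts was 13.9 to 17.3 in the WT mice and 18.0 to 33.9 in the Dp1Tyb mice, ranges that did not overlap. This ratio was chosen after the values were seen and was not tested.

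The 3 chains of C1q, the recognition protein that starts the classical pathway, are encoded side by side on the minus strand of chromosome 4. Their levels kept nearly the same proportions from mouse to mouse. Per length of the longest transcript, C1qb was present at 0.990 ± 0.0474 (SD over 10 mice) of the level of C1qa and C1qc at 0.719 ± 0.0438 of it. The proportion of C1qc depends on the length used. Over the summed exons it stood at 14.0 ± 1.78 RPKM (SD), against 31.4 ± 4.60 for C1qa. C1qa stood at 43.8, 35.3, 30.4, 30.4 and 32.6 CPM in WT1 to WT5 and at 30.7, 33.6, 28.5, 26.4 and 34.3 CPM in Dp1Tyb1 to Dp1Tyb5. WT1 was the highest of the 10 mice for all 3 chains, and the other mice of the groups overlapped. The log2 fold changes were −0.17 ± 0.10 for C1qa, −0.16 ± 0.11 for C1qb and −0.22 ± 0.08 (SE) for C1qc, with edgeR adjusted p of 0.463, 0.523 and 0.278. Without WT1 the estimates were −0.07 for C1qa, −0.05 for C1qb and −0.15 for C1qc, with unadjusted edgeR p of 0.405, 0.566 and 0.0781.

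The estimates of C4b and C1qa had opposite signs, and neither passed the test in the edgeR fit. C4b over C1qa, both in CPM, was 1.42 to 1.77 in the 5 WT mice, with a mean of 1.55 ± 0.137 (SD). In the 5 Dp1Tyb mice it was 2.08 to 2.60, with a mean of 2.37 ± 0.192. The ratio of C3 to C1qa was 0.0362 to 0.0530 in WT and 0.0583 to 0.187 in Dp1Tyb. Neither range overlapped between the genotypes, but both ratios were picked after the single genes had been seen and carry no test.

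**Figure D3:**
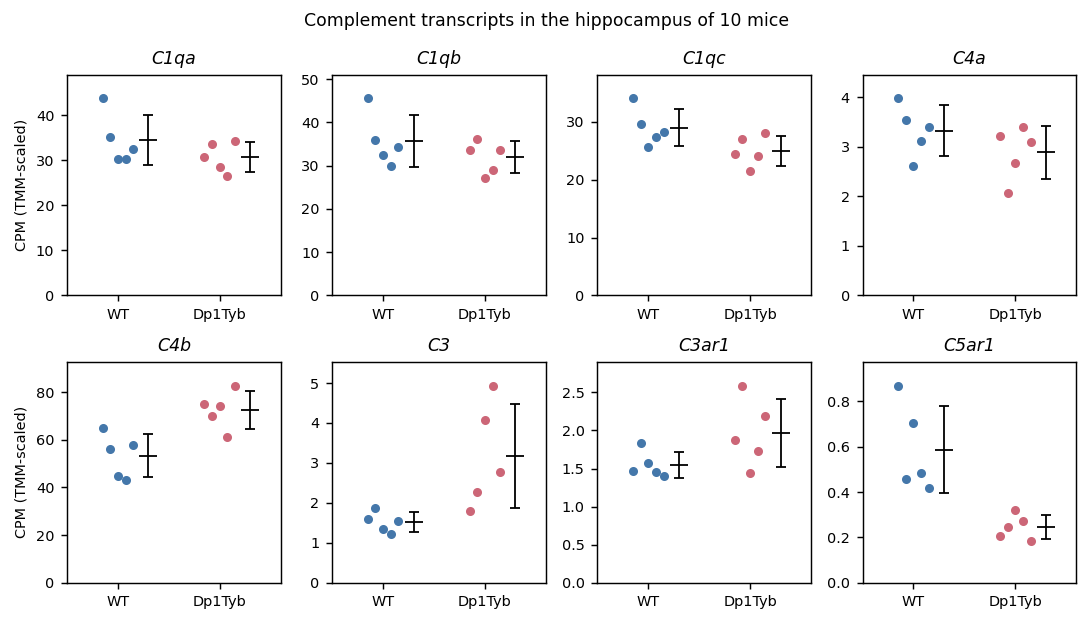
CPM (TMM-scaled, axis from 0) of 5 complement components, of C4a and of the receptors C3ar1 and C5ar1, with 1 point per mouse (replicates 1 to 5 from left to right) and the mean ± SD beside the points. C4b and C3 are higher in most Dp1Tyb mice, the 3 C1q chains overlap with WT1 at the top, and the C5ar1 groups do not overlap.

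Because astrocytes are a known source of C3 and C4, their markers were read beside these 2 genes. Of 8 astrocyte markers tested, 4 had positive and 4 negative estimates, with a median of 0.01. The intermediate filament Gfap, which astrocytes raise when reactive, was called higher in Dp1Tyb: 333 to 375 CPM in WT against 404 to 458 CPM in Dp1Tyb, with an estimate of 0.26 ± 0.05 (SE) and an edgeR adjusted p of 0.0167, though not in the fits without Dp1Tyb2 or without 3 libraries low in choroid plexus transcripts (estimates of 0.25 and 0.26). Aqp4, their water channel, stood at 113 to 135 CPM in WT and 138 to 163 CPM in Dp1Tyb, ranges that did not overlap. Its estimate was 0.22 ± 0.05 (SE), with an adjusted p of 0.0721 in edgeR and 0.0123 in DESeq2. The transporters Slc1a2 and Slc1a3 had 0.04 and 0.11. The other 4 markers had −0.01 (Aldh1l1), −0.08 (Gja1), −0.17 (Fgfr3, edgeR adjusted p = 0.293) and −0.19 (Sox9, edgeR adjusted p = 0.423). The part of astrocytes in the C3 and C4b values was not tested.

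The promoters of C1qb, C1qc and C3 are shown because the estimates of the C1q chains and of C3 had opposite signs, though none of them passed the edgeR threshold. They are the 250 bases before the RefSeq start of each gene in GRCm38.p6, read along the gene (minus strand of the chromosome). Capitals mark, in the C1q promoters, the core GAGGAA (or its reverse complement TTCCTC) bound by PU.1, the myeloid factor encoded by Spi1, and in the C3 promoter the core TTGCNNAA of C/EBP factors. C4b and C1qa had no entry in the promoter table.
C1qb, chr4:136886201-136886450: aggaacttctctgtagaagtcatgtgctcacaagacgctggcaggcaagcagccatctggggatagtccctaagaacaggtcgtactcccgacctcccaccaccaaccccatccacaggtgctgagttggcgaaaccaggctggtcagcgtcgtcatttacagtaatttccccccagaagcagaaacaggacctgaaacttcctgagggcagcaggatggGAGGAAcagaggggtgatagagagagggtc
C1qc, chr4:136892915-136893164: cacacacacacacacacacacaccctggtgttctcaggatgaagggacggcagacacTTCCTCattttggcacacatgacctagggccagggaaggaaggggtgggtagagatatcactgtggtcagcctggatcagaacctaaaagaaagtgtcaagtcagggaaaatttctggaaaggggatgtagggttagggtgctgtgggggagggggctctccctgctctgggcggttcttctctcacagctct
C3, chr17:57228137-57228386: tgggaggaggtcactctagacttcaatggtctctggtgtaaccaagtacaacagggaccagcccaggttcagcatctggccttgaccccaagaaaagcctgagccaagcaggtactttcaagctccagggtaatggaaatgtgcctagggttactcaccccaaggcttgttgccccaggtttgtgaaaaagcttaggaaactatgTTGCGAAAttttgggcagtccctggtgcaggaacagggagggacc

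In these windows the PU.1 core begins 30 bases before the start of C1qb and 193 bases before that of C1qc, and the C/EBP core begins 45 bases before that of C3. GENCODE M21, used for gene lengths, starts C1qc at chr4:136893065, inside the window shown. Part of that window therefore lies within the GENCODE gene. Of the 31 genes, 21 had a promoter in the table, with 25 promoters between them. A gene was counted if any of its promoters matched, while the shares of all promoters count each promoter singly. Genes with several promoters therefore had more chances to match. Searched on both strands, GAGGAA was in 10 of the 21 (47.6%): Aif1, C1qb, C1qc, Cd68, Ctss, Fcrls, Itgam, P2ry13, Ptprc and Trem2. It was in 23.3% of all 32851 promoters of the same length. TTGCNNAA was in 4 of 21 (19%), those of C3, Cd68, P2ry12 and Siglech, against 9.56% of all promoters. TATAAA was in 4 of 21 (19%), against 12.4%. These are matches of letters and do not show binding.

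None of the 11 markers of resting microglia passed the test, and their median estimate was smallest in size without the mouse Dp1Tyb3. Of the 11, 8 had negative and 3 positive estimates, with a median of −0.12, where 8842 of all 17237 tested genes had negative estimates. Markers of some other cell types had negative estimates too: all 6 of endothelium, with a median of −0.12 and 4 at an unadjusted p under 0.05, and all 5 of erythrocytes, with a median of −0.43. Those of other types went the other way. Estimates were positive for 6 of 7 neuronal markers (median 0.09), 5 of 6 of oligodendrocytes (median 0.08) and all 4 tested of lymphocytes. Of the 7 neuronal markers, 3 were higher at an unadjusted p under 0.05, and edgeR called Gad2 (0.34, adjusted p = 0.0410). DESeq2 called Gad1 and Gad2 (adjusted p = 0.0116 and 0.00109). The summed neuronal markers were 6309 to 6739 CPM in WT and 6873 to 7124 CPM in Dp1Tyb, ranges that did not overlap. The summed endothelial markers were 198 to 213 CPM in WT and 187 to 195 CPM in Dp1Tyb, and the summed erythrocyte markers 43.0 to 93.2 CPM and 33.4 to 67.1 CPM. The part of these cells in the values of the microglial genes was not tested. The adhesion ligand Selplg stood at 27.3, 25.8, 26.9, 30.3 and 27.7 CPM in WT1 to WT5 and at 24.5, 24.5, 17.6, 21.2 and 28.2 CPM in Dp1Tyb1 to Dp1Tyb5. Tmem119, a membrane protein that sets microglia apart from other macrophages, stood at 20.9, 16.6, 15.9, 18.0 and 17.1 CPM in WT and 15.4, 15.5, 12.7, 17.0 and 15.6 CPM in Dp1Tyb. Fcrls, a scavenger-type surface protein of microglia, stood at 28.4, 26.1, 18.7, 22.0 and 20.6 CPM in WT and 19.2, 21.6, 16.5, 18.4 and 21.3 CPM in Dp1Tyb. In all 3 genes the groups overlapped and Dp1Tyb3 was the lowest mouse. Their log2 fold changes were −0.25 ± 0.10, −0.22 ± 0.09 and −0.26 ± 0.11 (SE), with edgeR adjusted p of 0.283, 0.293 and 0.305.

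Siglech, a sialic acid-binding lectin of microglia, had a positive estimate. It stood at 16.6, 13.6, 13.8, 12.9 and 12.8 CPM in WT and 17.2, 14.9, 14.0, 19.1 and 15.2 CPM in Dp1Tyb, and its estimate was 0.21 ± 0.10 (SE), with an adjusted p of 0.349. The groups overlapped through WT1, the highest WT mouse. The estimate was 0.11 with the level of choroid plexus transcripts as a covariate, 0.059 without the 3 libraries lowest in those transcripts and 0.14 without Dp1Tyb4. It was larger without WT1, at 0.28 (edgeR adjusted p = 0.209), and without Dp1Tyb3, at 0.26 (edgeR adjusted p = 0.322). Of the receptors that maintain or guide microglia, the fractalkine receptor Cx3cr1 had −0.12 ± 0.07 and Csf1r −0.09 ± 0.08. P2ry12 had 0.03 ± 0.07, its neighbour P2ry13 −0.21 ± 0.13 and the lipid receptor Gpr34 0.02 ± 0.11. Sall1, the transcription factor that keeps microglial identity, had −0.08 ± 0.07 and the secreted Olfml3 −0.14 ± 0.09. Adjusted p for these 7 lay between 0.484 and 0.956. Of the windows of Csf1r, 17.3% are shared with Hmgxb3 on the opposite strand, and exons of P2ry12 overlap Med12l on the opposite strand. Both values are therefore uncertain, since the strand setting of the counting was not stated.

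Dp1Tyb3 was the lowest of the 10 mice for 9 of the 11 resting markers, with a median level of −0.34 on the log2 scale relative to each gene's mean. The same library was the lowest for 7.13% of all tested genes, and it held 25396186 counts, within the range of the others. It was also lowest for 13 of 28 other microglia-expressed genes that are not among the 31, and for 4 of 8 markers of border-associated macrophages, the macrophages of the meninges and vessels. Of those 8, 6 were tested and all 6 had negative estimates, and their summed level was 24.1 to 31.4 CPM in WT and 18.1 to 25.7 CPM in Dp1Tyb. Their part in the values of the shared macrophage genes was not tested. WT1 was the opposite case, the highest of the 10 for 14 of the 31 genes and for 8 of the 28 others, against 9.4% of all tested genes. Dp1Tyb5 was likewise the highest for 8 of the 28 others and for 6 of the 31, against 8.02% of all tested genes. Csf1r shows the size of the drop in Dp1Tyb3: 87.5 to 98.7 CPM in the WT mice, 87.7 to 95.9 CPM in 4 Dp1Tyb mice and 66.3 CPM in Dp1Tyb3. Without Dp1Tyb3, the median of the 11 resting markers was −0.06 instead of −0.12, with 8 still negative. Then 0 of them were lower at an unadjusted edgeR p under 0.05 instead of 3 (Selplg at 0.0501). The median of all tested genes among the 31 was −0.00047 instead of −0.06. Without WT1, WT4 or Dp1Tyb4, 1 resting marker was lower by that measure. With the choroid plexus covariate and Dp1Tyb3 kept, 10 of the 11 were negative, with a median of −0.18, and 5 were lower. Without the 3 libraries lowest in choroid plexus transcripts, 10 were negative, with a median of −0.20, and 2 were lower. In Dp1Tyb3, C3, at 4.08 CPM, was the second highest of the 10 and C4b, at 74.0 CPM, the third highest.

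**Figure D4:**
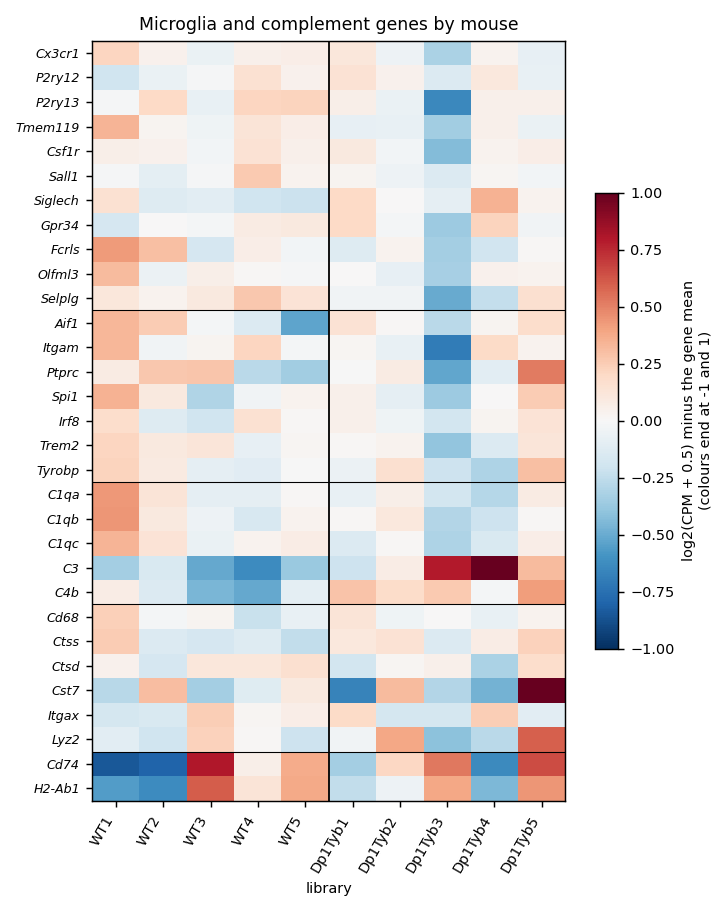
Log2(CPM + 0.5) of each of the 31 genes in each library, minus the gene's mean over the 10 mice, with blue for lower and red for higher values. The upper blocks are blue in Dp1Tyb3, the C1q rows are red in WT1, and the rows of C3 and C4b are mostly blue in WT and red in Dp1Tyb.

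The 7 genes of myeloid cells in general did not separate the groups. Estimates were 0.01 ± 0.17 for Aif1, which encodes the calcium-binding protein IBA1, −0.19 ± 0.14 for Itgam, the complement receptor chain CD11b, and 0.01 ± 0.19 for Ptprc, the leukocyte phosphatase CD45. The transcription factors Spi1 and Irf8 had −0.08 ± 0.16 and −0.02 ± 0.11. Trem2, a lipid-sensing receptor, and its signalling adaptor Tyrobp had −0.14 ± 0.10 and −0.04 ± 0.12 (SE). Adjusted p ranged from 0.533 to 0.991, and the median of the 7 was −0.04. Itgam stood at 30.6, 23.5, 24.7, 28.1 and 23.8 CPM in WT and at 24.5, 23.0, 14.7, 27.6 and 24.8 CPM in Dp1Tyb, so that Dp1Tyb3 alone lay below the others. Dp1Tyb3 was the lowest mouse for 4 of the 7 and WT1 the highest for 5 of the 7. Without Dp1Tyb3 the median was 0.0048, and without WT1 it was 0.03.

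Of the 6 lysosomal or activated-state genes, 5 were tested and 4 of them had positive estimates, with a median of 0.09. Ctss had 0.16 ± 0.09 (adjusted p = 0.442), with 59.7 CPM in WT1 and 42.1 to 45.6 CPM in the other WT mice against 45.3 to 58.6 CPM in Dp1Tyb. Without WT1 its estimate was 0.26 ± 0.07 (SE), with an edgeR unadjusted p of 0.00213 and an adjusted p of 0.110. Over the 17 alternatives the estimate was 0.12 to 0.26, and none called it. The lysosomal membrane protein Cd68 had 0.01 ± 0.10, Ctsd −0.10 ± 0.09 and the lysozyme gene Lyz2 0.15 ± 0.18 (SE). Itgax had 0.09 ± 0.29 on 7 to 22 counts per library. Of the windows of Itgax 6.04% are shared with Itgad, and of those of Lyz2 5.96% with Lyz1.

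Cst7, which encodes cystatin F, an inhibitor of lysosomal proteases made by activated microglia and by lymphocytes, had too few counts to be tested. It had 8, 15, 4, 11 and 10 counts in WT1 to WT5 and 3, 18, 6, 5 and 43 counts in Dp1Tyb1 to Dp1Tyb5. The high value in Dp1Tyb5, 1.96 CPM, was seen in that mouse alone; the other 9 lay between 0.0688 and 0.63 CPM. The same library had 95 counts over Cd3d, Cd3e and Cd3g, subunits of the T cell receptor complex, where the other 9 had 12 to 30. The sum over 10 lymphocyte markers was 8.12 CPM in Dp1Tyb5, 2.06 to 3.36 CPM in the other Dp1Tyb mice and 2.10 to 3.04 CPM in WT. The part of lymphocytes in the Cst7 value was not tested. Dp1Tyb5 was also the highest of the 10 for Ptprc, Tyrobp, Ctsd, Lyz2 and C4b.

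The MHC class II genes varied widely between mice of the same genotype. Cd74, the invariant chain that guides class II molecules, stood at 2.24, 2.33, 8.08, 4.63 and 5.88 CPM in WT and at 3.39, 5.18, 6.60, 2.67 and 7.25 CPM in Dp1Tyb. H2-Ab1, a beta chain, stood at 1.03, 0.957, 2.93, 1.97 and 2.42 CPM in WT and at 1.40, 1.68, 2.44, 1.15 and 2.56 CPM in Dp1Tyb. The groups overlapped through most of their range, and the log2 fold changes were 0.12 ± 0.36 and −0.01 ± 0.32 (SE), with adjusted p of 0.904 and 0.994. Both genes had the same order of mice at the top, WT3 above Dp1Tyb5, and the ratio of Cd74 to H2-Ab1 stayed within 2.18 to 3.08 in all 10 libraries.

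The libraries differed in transcripts of choroid plexus, the secretory epithelium of the ventricles that lies against the hippocampus and holds its own class II-bearing cells. All 9 choroid plexus markers had negative estimates with a median of −0.90 (none called). Of these markers, Clic6 and Kcne2, at −0.40 and −0.43, lie in the segment present in 3 copies in Dp1Tyb. The covariate used below averages all 9. The choroid plexus transcript Ttr ranged from 12.9 to 4888 CPM over the 10 mice, with 12.9 in Dp1Tyb1, 15.8 in Dp1Tyb4 and 362 in WT2. In these 3 libraries Cd74 was 2.33 to 3.39 CPM, all among the 4 lowest of the 10, while in the other 7 it was 2.24 to 8.08 CPM. WT1 was the exception, with the lowest Cd74 but 2640 CPM of Ttr. With the choroid plexus level as a covariate, the estimate for Cd74 was 0.61 ± 0.22 (SE, adjusted p = 0.289) and that for H2-Ab1 0.41 (adjusted p = 0.523). The estimates of C3 and C4b moved little, to 1.02 and 0.46, with adjusted p of 0.137 and 0.0769. Without the 3 libraries they were 1.09 and 0.51, with edgeR adjusted p of 0.0577 and 0.133.

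**Figure D5:**
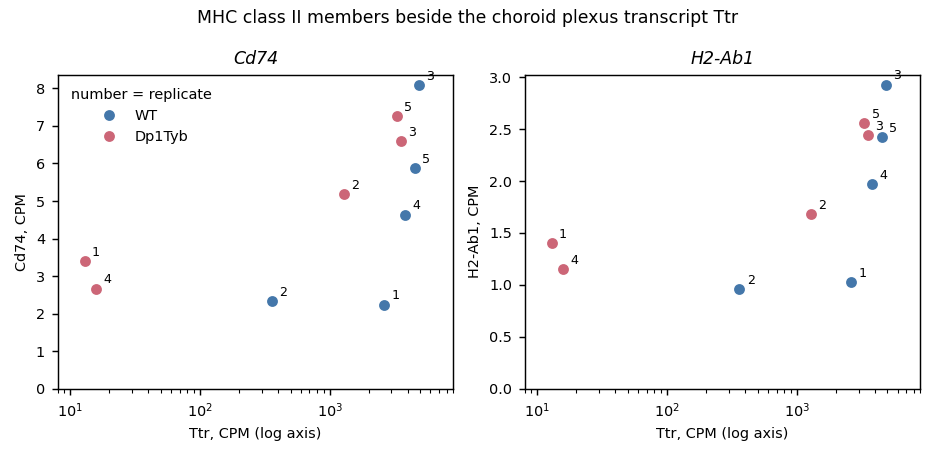
CPM of Cd74 (left) and H2-Ab1 (right) against CPM of the choroid plexus transcript Ttr (log axis), 1 point per mouse, numbered by replicate. The mice with the least Ttr (Dp1Tyb1, Dp1Tyb4 and WT2) are among the 4 lowest for both genes, and WT1 is low for both at 2640 CPM of Ttr.

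Other genes of complement and microglia were read from 6 lists of 103 genes, of which 92 were tested. None was called by edgeR, against 1.11% of all tested genes. At an unadjusted p under 0.05 there were 13 (14.1%), 8 higher and 5 lower, close to the 14.4% of all tested genes. DESeq2 called 1, Clu, which was lower in Dp1Tyb. The groups did not overlap in 2 of the 92 (C5ar1 and Clu), while they did not overlap in 3.68% of all tested genes.

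Of the 18 complement receptors and regulators, 16 were tested, with 5 positive and 11 negative estimates, and 3 were lower at an unadjusted p under 0.05. The largest difference was in C5ar1, the receptor for the anaphylatoxin C5a. It stood at 0.871, 0.458, 0.705, 0.484 and 0.420 CPM in WT1 to WT5 and at 0.206, 0.245, 0.320, 0.273 and 0.183 CPM in Dp1Tyb1 to Dp1Tyb5. All 5 Dp1Tyb mice were below all 5 WT mice, but on 9 to 28 counts per WT library and 4 to 9 per Dp1Tyb library. Its estimate was −1.26 ± 0.29 (SE), with an edgeR adjusted p of 0.0572, and no alternative called it (0.0600 to 0.251, with no adjusted value from DESeq2). C3ar1, the receptor for C3a, was singled out after its values were seen, and had an estimate of 0.35 ± 0.17 (SE), with an adjusted p of 0.369. Clu, or clusterin, an inhibitor of the terminal complex that astrocytes also secrete, stood at 853 to 916 CPM in WT and 647 to 815 CPM in Dp1Tyb, ranges that did not overlap. Its log2 fold change was −0.21 ± 0.06 (SE), with an adjusted p of 0.111 in edgeR and 0.0134 in DESeq2.

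Of 16 proteases and components of the cascade, 10 were tested and 7 had positive estimates. Properdin (Cfp), which stabilises the C3 convertase and is made by microglia, had the smallest p, with −0.24 (adjusted p = 0.263). The convertase component C2 and the proteases C1ra and C1s1 had 0.03 ± 0.26, 0.18 ± 0.17 and 0.26 ± 0.31 (SE). Of the 6 without enough counts to be tested, Cfd, C6, C8a and C9, of the alternative and terminal pathways, held at most 0.12 CPM in any library.

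Of the 28 other microglia-expressed genes, 21 had negative estimates, with a median of −0.09. The lowest p belonged to the transcription factor Runx1, 0.51 ± 0.20 (SE, adjusted p = 0.285), which lies in the duplicated segment, and to the TGF-beta receptor Tgfbr1, −0.17 (adjusted p = 0.346). Among the ligands and signals, Il34, the neuronal ligand of Csf1r, had 0.16 (adjusted p = 0.218), while Csf1, its other ligand, had −0.00018 (adjusted p = 0.999). Cd47, a signal that restrains uptake by phagocytes, had 0.28 (adjusted p = 0.161) and was called without Dp1Tyb4, at 0.34. It lies on chromosome 16 but outside the duplicated segment.

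The list of the disease-associated state, in which microglia lower resting markers and raise lipid and lysosomal genes, had 7 positive and 11 negative estimates. Igf1, a growth factor, had 0.30 (adjusted p = 0.190). Gpnmb, a lysosomal glycoprotein, had 0.36 (adjusted p = 0.224) and was called without WT1 (0.50, adjusted p = 0.0315). Apoe, Axl and Lpl, core genes of that state that other brain cells also express, had −0.12, 0.01 and −0.03. In the antigen presentation list 9 of 10 estimates were positive, and the smallest p belonged to the class I genes B2m at 0.15 (adjusted p = 0.238) and H2-D1 at 0.21 (adjusted p = 0.285). Dp1Tyb5, the library with 8.12 CPM of lymphocyte markers, was the highest of the 10 for 7 of these 10 genes, and the part of lymphocytes in them was not tested. Without Dp1Tyb5 the estimates were 0.12 for B2m and 0.14 for H2-D1.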

How the data were processed

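The authors prepared stranded poly(A) libraries, read as paired ends of 75 bases. Per the labels and the methods, reads were trimmed with Trim Galore, mapped to GRCm38 with TopHat 2.0.12 and counted per gene with htseq-count after multiply aligned reads were discarded. The deposited values used are whole-number counts of reads per gene, not normalized. The strand setting and annotation release are not given in the sources used here. The normalized table and the authors' comparison (mean, log2 fold change, error, p and adjusted p from DESeq2 1.6.3) were not used.

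IDs were matched to GENCODE M21 (42548 of 43629). The counts of all genes were tested with edgeR 4.0.16 in R 4.3.3 (quasi-likelihood, TMM, filterByExpr, genotype only, Benjamini-Hochberg), checked on simulated counts. The alternatives were RLE factors, no filter, DESeq2 1.42.0, limma-voom (limma 3.58.1), a replicate block, a choroid plexus covariate, each library left out, and, chosen after the values were seen, the 3 libraries lowest in choroid plexus transcripts left out. RPKM used summed exons or the longest transcript. From each related list the genes called, or otherwise the 2 with the smallest p, were named, with a few others given by role. The genes and lists were chosen with earlier results of these data known. Each library is 1 mouse, and no batch is given in the labels. Promoters came from RefSeq (GRCm38.p6).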

Additional observations from a re-analysis of the deposited data

Results flagged for a closer look

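In 62 sets of 5 mice (each gene in each genotype), 5 had a mouse whose distance from the nearest other exceeded Dixon's limit of 0.71 of the range, where chance gives about 1 in 20 sets, or 3.1. Dp1Tyb3 stood apart as the lowest Dp1Tyb mouse for P2ry13, at 6.32 CPM against 9.69 to 10.6 in the other 4, and for Csf1r, at 66.3 CPM against 87.7 to 95.9. WT1 stood apart as the highest WT mouse for Siglech, at 16.6 CPM against 12.8 to 13.8, for Olfml3, at 21.5 CPM against 16.5 to 17.9, and for Ctss, at 59.7 CPM against 42.1 to 45.6.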

How the results depend on the processing

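Of the 31 genes, 2 were called without a filter on low counts, 2 by DESeq2 and 1 (C4b, adjusted p = 0.00624) with the replicate number as a block, against 0 as reported, and leaving out 1 library gave 0 to 1. At an unadjusted p under 0.05 the count was 11 with the replicate block and 10 with the choroid plexus covariate, against 6. Of all tested genes, 507 were called by DESeq2, 315 with the replicate block, 108 without the 3 libraries low in choroid plexus transcripts and 105 to 218 without 1 library, against 191. Of the related lists, 1 gene was called by DESeq2 (Clu), 1 with the replicate block (Cd47) and 0 to 1 without 1 library. Same-numbered mice correlated at −0.060 to 0.343 in their deviations from the group means, and the numbers were not treated as pairs.

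Several estimates close to 0 changed sign. With the choroid plexus covariate they were −0.0089 for P2ry12, −0.093 for Gpr34, −0.095 for Aif1, 0.0027 for Tyrobp, −0.0043 for Cd68, 0.027 for Ctsd, −0.12 for Itgax and 0.41 for H2-Ab1. Without the 3 libraries they were −0.061 for P2ry12, −0.15 for Gpr34, 0.080 for Tyrobp, −0.013 for Cd68 and 0.12 for H2-Ab1. Ptprc had −0.0059 under limma-voom and −0.0056 with the replicate block, and H2-Ab1 0.046 and 0.024. Leaving out 1 library gave −0.011 to 0.080 for P2ry12, −0.043 to 0.10 for Gpr34, −0.10 to 0.12 for Aif1, −0.15 to 0.12 for Ptprc, −0.16 to 0.026 for Spi1, −0.066 to 0.035 for Irf8, −0.13 to 0.027 for Tyrobp, −0.043 to 0.091 for Cd68, −0.021 to 0.21 for Itgax, −0.00075 to 0.26 for Lyz2, −0.064 to 0.40 for Cd74 and −0.18 to 0.19 for H2-Ab1. The cause of these changes was not tested. C3, C4b and the 3 C1q chains kept their direction in all 17 alternatives. No scaling alternative moved the median of all tested genes by over 0.1. Low counts limit C3, C5ar1, Cst7 and Itgax.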
